A study of Mus musculus with 24 samples.

Results

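The genes described here are the 7 inhibitors of cyclin-dependent kinases (CDKs) and the 3 pocket proteins of the retinoblastoma (Rb) family: Cdkn1a, Cdkn1b and Cdkn1c of the CIP/KIP family, Cdkn2a, Cdkn2b, Cdkn2c and Cdkn2d of the INK4 family, and Rb1, Rbl1 and Rbl2. They were taken by gene name, with no threshold on a measured value, and all 10 were found among the 41710 genes of the table for primary and of the table for immortalized murine embryonic fibroblasts (MEFs). All 10 passed the filter on low values in both tables. The question was how these brakes of the cell cycle stand in MEFs that had lost Myc, Mlx or both, and in which the study looked for senescence.

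The MEFs came from pooled embryos of about day 14 to 16 that carried floxed alleles of Myc, Mlx or both and a CreER recombinase driven from the ROSA26 locus, which is active in all cell types. MycKO, MlxKO and double-knockout (DKO) cells had been exposed to 500 nM 4-hydroxytamoxifen (4OHT) to excise the alleles, for at least 7 days in primary and 10 days in immortalized cells. The study then kept knockout cells in a lower dose of 4OHT, removed for at least 3 days before use. WT cells kept both loci and received no 4OHT. The study describes ethanol alone for the excision in MEFs and medium without 4OHT for immortalized WT cells. Excision and exposure to 4OHT therefore cannot be told apart in comparisons with WT. Primary RNA was taken on day 10. Immortalized cells carried SV40 T-antigen, a viral protein that binds and inactivates both p53 and the pocket proteins, from a lentiviral vector with blasticidin selection. The study reported that most immortalized MycKO cells had become tetraploid or pseudo-tetraploid, whereas DKO cells stayed euploid. The part of ploidy in the values below was not tested. Each genotype had 3 libraries per table, 24 in all. The sources describe triplicate sets of RNA, which the study calls biological replicates, and state no separate embryo pool for each. The study pooled the embryos of each group and in most cases used a single WT line as control. Genotype may therefore go together with embryo pool or line, and these cannot be told apart here. The p-values measure only the spread between these libraries.

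In a dividing cell, D-type cyclins with CDK4 or CDK6 and then cyclin E with CDK2 phosphorylate the pocket proteins, which releases E2F transcription factors and lets the genes of S phase be transcribed. INK4 proteins bind CDK4 and CDK6 and keep them from their cyclins, whereas CIP/KIP proteins bind whole cyclin-CDK complexes. Fibroblasts that enter senescence in culture usually accumulate p21 and p16, the products of Cdkn1a and Cdkn2a, and hold Rb in its active form. Myc, which acts with Max, is known to repress Cdkn1a and Cdkn2b through Miz1, and Mlx is the partner of MondoA and ChREBP in a related network.

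Promoter sequences from RefSeq on GRCm38.p6 are shown for the genes on which the results below turn: Cdkn1a and Cdkn2b, which differed with the combination of Myc and Mlx genotypes, Rbl1, which was lower in MycKO cells of both tables, and the pair of Cdkn2a promoters, whose transcripts a gene count adds together. Each run covers the 250 bases before a transcription start, 5′ to 3′ on the strand of the gene, and capitals mark an E2F site (TTTCGCGC, TTTGGCGC or TTTCCCGC) or a GC box (GGGCGG), searched on both strands. GC boxes stood in the Cdkn1a window shown and in the upstream Cdkn2a and the Rbl1 windows, in the last as its complement CCGCCC. E2F sites stood in the upstream Cdkn2a and the Rbl1 windows. Another Cdkn1a window, chr17:29090729-29090978, held neither and is not shown.
Cdkn1a, chr17:29093519-29093768, plus strand: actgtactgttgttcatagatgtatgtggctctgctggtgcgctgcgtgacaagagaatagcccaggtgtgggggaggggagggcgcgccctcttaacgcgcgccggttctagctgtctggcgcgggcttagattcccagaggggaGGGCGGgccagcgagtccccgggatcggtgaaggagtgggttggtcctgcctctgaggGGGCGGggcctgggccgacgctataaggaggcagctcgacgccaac
Cdkn2b, chr4:89311033-89311282, minus strand: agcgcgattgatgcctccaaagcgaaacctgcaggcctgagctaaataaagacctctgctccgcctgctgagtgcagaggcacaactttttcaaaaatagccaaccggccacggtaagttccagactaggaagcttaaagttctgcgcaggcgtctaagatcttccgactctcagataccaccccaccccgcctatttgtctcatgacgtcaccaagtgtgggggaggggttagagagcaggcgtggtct
Cdkn2a upstream, chr4:89294620-89294869, minus strand: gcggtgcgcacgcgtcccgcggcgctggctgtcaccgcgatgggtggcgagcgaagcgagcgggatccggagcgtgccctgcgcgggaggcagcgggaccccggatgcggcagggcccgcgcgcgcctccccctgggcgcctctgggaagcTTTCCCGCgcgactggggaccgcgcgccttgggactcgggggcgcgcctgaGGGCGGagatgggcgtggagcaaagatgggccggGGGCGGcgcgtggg
Cdkn2a downstream, chr4:89282193-89282442, minus strand: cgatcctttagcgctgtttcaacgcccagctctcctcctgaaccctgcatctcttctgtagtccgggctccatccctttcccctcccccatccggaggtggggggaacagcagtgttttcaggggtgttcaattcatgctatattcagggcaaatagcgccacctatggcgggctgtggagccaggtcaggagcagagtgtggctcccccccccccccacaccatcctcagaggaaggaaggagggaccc
Rbl1, chr2:157204535-157204784, minus strand: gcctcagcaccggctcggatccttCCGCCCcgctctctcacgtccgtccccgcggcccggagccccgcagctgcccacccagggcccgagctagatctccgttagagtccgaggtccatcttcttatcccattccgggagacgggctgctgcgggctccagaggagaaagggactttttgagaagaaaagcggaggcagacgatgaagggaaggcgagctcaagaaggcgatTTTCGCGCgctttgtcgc

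RefSeq windows were at hand for 8 of the 10 genes, 11 windows in all. The E2F site of Rbl1 began 18 bases and that of the upstream Cdkn2a promoter 99 bases before the start, and these 2 were the only windows of the 11 with such a site, against 1.53% of 32851 mouse promoter windows of the same length. A GC box stood in 6 of the 11 windows and in 32.7% of all windows. The E-box CACGTG, the consensus letters of Myc-Max, stood in 0 of the 11 windows and in 6.02% of all. According to the study, heterodimers of Mlx with ChREBP or MondoA classically bind spaced pairs of E-boxes, and also bind single ones. Such spaced pairs were not searched for. A match describes letters and not binding, and a window without one says nothing about a factor.

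On GRCm39 with the GENCODE vM39 annotation, Cdkn2a (ENSMUSG00000044303) occupied chr4:89192708-89212890 and Cdkn2b (ENSMUSG00000073802) chr4:89223204-89229276, both on the minus strand. Cdkn2a had 2 coding transcripts. One began with an exon at 89200223 to 89200429 and encodes p16Ink4a, and the other began with an exon at 89212571 to 89212890 and encodes p19Arf, which restrains Mdm2 and so spares p53. They shared 575 bases, 67.5% of the first and 64.2% of the second, and the deposited value is of the gene, so the values of Cdkn2a below do not separate p16Ink4a from p19Arf. Cdkn1a (ENSMUSG00000023067) lay at chr17:29309936-29319701, Cdkn1c (ENSMUSG00000037664) at chr7:143012069-143014806 and Rbl1 (ENSMUSG00000027641) at chr2:156987813-157046475. Antisense lncRNA genes overlapped all of the members but Cdkn2a and Rb1, and the coding genes on the opposite strand were Rcbtb2 and Lpar6 at Rb1 and Aktip at Rbl2. On the same strand, the lncRNA gene 4933417O13Rik spanned Cdkn1c, and the lncRNA genes Gm17233 and Gm62650 and the microRNA gene Mir687 overlapped Rb1. Overlaps were taken over whole genes and not over exons. The libraries keep strand, but the strand setting of the counting is not given in the sources used here. Reads of partners on the opposite strand therefore could not be separated, and strand would not separate those on the same strand. Of all stretches of 50 bases in the members' transcripts, at most 1.93% (Rb1) occurred in another gene.

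Expression is given in CPM, reads relative to a scaled library size, and the libraries held 15986856 to 20966163 reads on genes. Changes are log2 differences of CPM + 1 with their standard error (SE), tested with limma over the 4 genotypes of a table and called at a Benjamini-Hochberg adjusted p under 0.05 over all genes tested, 13101 in primary and 12880 in immortalized cells. Myc itself was at 100.1, 89.8 and 91.8 CPM in primary WT, and at 25.8 to 26.8 in MycKO and 19.9 to 22.9 in DKO libraries. Mlx was at 26.0, 20.5 and 24.5 CPM in primary WT and at 13.0 to 14 in MlxKO and 9.73 to 12.0 in DKO libraries. Both genes were thus lower in each library labelled as lacking them, with transcripts still counted, and the values do not separate the excised part of a gene from the rest.

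Among immortalized cells, library WT4 stood apart. Pearson's r of log2(CPM + 1) across genes, which are not independent replicates, lay between 0.985 and 0.986 for WT4 and the other WT libraries and between 0.995 and 0.999 for all other pairs of a group. WT4 held 177 CPM of Myc against 48.1 and 39.9 in the other WT libraries, 59.5 CPM of Cdkn1a against 143 and 131, and 22.3 CPM of Cdkn1c against 6.50 and 7.38. The immortalized MycKO libraries held 9.96 to 17.2 and the DKO libraries 4.25 to 8.02 CPM of Myc, below every WT library. Mlx was at 20.5 to 25.1 CPM in immortalized WT, at 12.1 to 17 in MlxKO and at 14.5 to 18 in DKO libraries, again below every WT library. Its fall against WT was -0.71 in MlxKO (adjusted p = 0.00471, limma) and -0.44 in DKO cells, the latter not called (adjusted p = 0.0694). In primary cells, MycKO10 was further from its group than the other libraries and is named where it decides a call. Fibroblast markers were present in every library, with a summed level of 42753 to 58686 CPM over 10 genes in primary and 18011 to 34569 CPM in immortalized cells. In primary MycKO cells 8 of the 10 rose, Dcn among them by 1.08, and Lum fell, at -0.65. Without MycKO10 7 rose and 2 fell. In immortalized MycKO cells 2 rose, Thy1 and Pdgfrb, and 3 fell, Lum, Col3a1 and Col1a1, or 4 without WT4.

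Levels of different genes were compared per kilobase of exon, on the scale of CPM per kb. The length was the union of all annotated exons of a gene, 6045 bases for Cdkn1a and 1172 for Cdkn2a. It is not the length of the transcripts that these cells express, so the order below depends on the annotation. In primary WT cells Cdkn1a was highest at a mean of 50.4 CPM per kb, followed by Cdkn2a at 38.6, while Cdkn1b stood at 12.6 and Cdkn2b at 12.2. The other inhibitors lay between 3.97 for Cdkn2c and 8.03 for Cdkn2d, and the pocket proteins between 2.07 for Rb1 and 4.10 for Rbl1. In immortalized WT cells Cdkn2a headed the order at 209.8 CPM per kb, ahead of Cdkn1b at 34.2 and Cdkn1a at 18.4. The tables were normalized separately and no test was made between them, and the values are set side by side only.

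**Figure D1:**
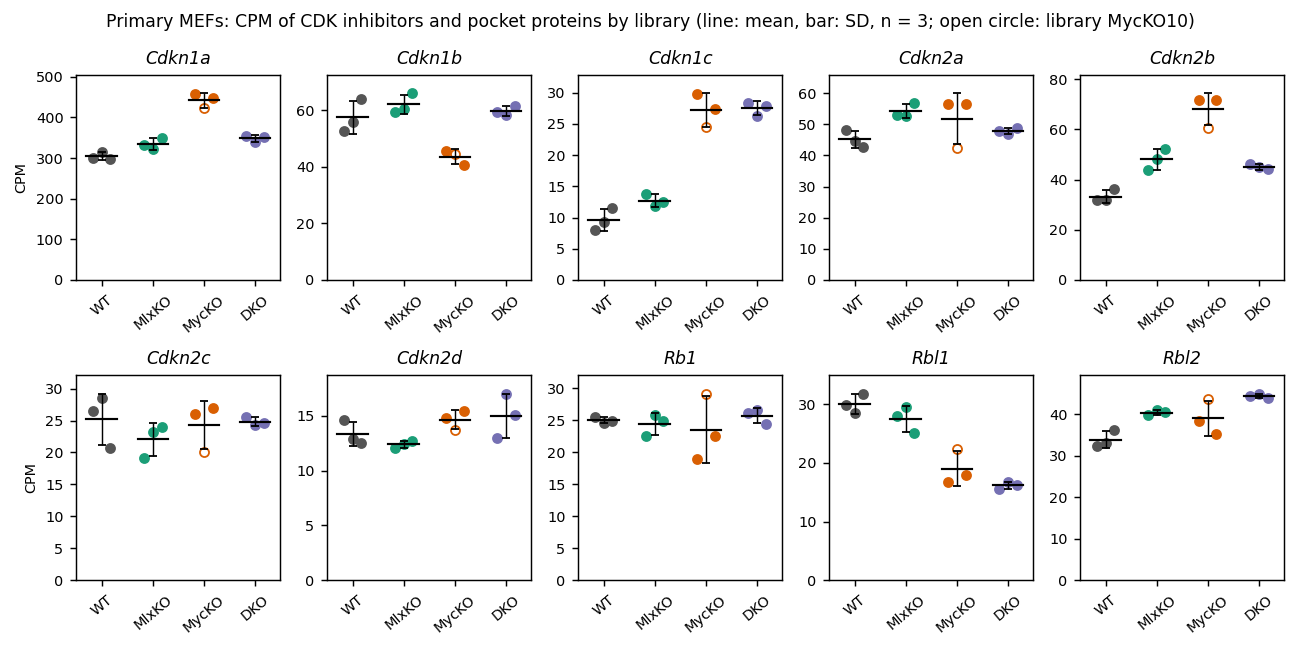
CPM of the 10 genes in each primary library (y axis, from 0), by genotype (x axis), with the mean as a line and the SD as a bar (n = 3) and library MycKO10 as an open circle. Cdkn1c was at 24.5 CPM or more in the MycKO and DKO libraries and at 13.8 or less in the others, and Cdkn2b was highest in MycKO cells.

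In primary MycKO cells 5 of the 10 genes were called against WT, with Cdkn1a, Cdkn1c and Cdkn2b higher and Cdkn1b and Rbl1 lower. Of all genes tested, 42.3% were called in that comparison (20.4% higher and 21.9% lower), so the share of the members was near that of the transcriptome. The libraries of these groups did not overlap for 5 members and for 48.1% of all genes. The median log2 change was 0.15 over the members and 0.00 over all genes.

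Cdkn1a encodes p21, the CIP/KIP inhibitor that p53 induces. Its CPM were 301, 315 and 297 in WT, 333, 322 and 349 in MlxKO, 457, 422 and 447 in MycKO and 354, 339.8 and 351 in DKO libraries. MycKO libraries were all above those of the other genotypes, and DKO libraries lay between MycKO and WT, where they overlapped with MlxKO. The rise in MycKO against WT was 0.54 ± 0.06 (SE; limma adjusted p = 1.23e-06), a 1.45-fold ratio of mean CPM. In DKO cells it was 0.19 (adjusted p = 0.00825), and the difference of DKO from MycKO was -0.34 (adjusted p = 0.000283). Scaled by library totals, DKO against WT was 0.11 with an adjusted p of 0.113, so the rise in DKO cells depends on the scaling.

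Cdkn1c encodes p57, an inhibitor transcribed from the maternal allele of an imprinted cluster. Libraries of WT cells held 8.07, 9.29 and 11.5 CPM, those of MlxKO cells 13.8, 11.8 and 12.5, those of MycKO cells 29.9, 24.5 and 27.3, and those of DKO cells 28.4, 26.4 and 27.9. The MycKO and DKO libraries overlapped with each other and with no library of WT or MlxKO cells. Against WT, Cdkn1c rose by 1.42 ± 0.12 in MycKO (adjusted p = 8.46e-08, limma) and by 1.44 ± 0.12 in DKO cells (adjusted p = 4.64e-08). DKO and MycKO cells differed by 0.02 ± 0.12 (adjusted p = 0.938). Of 5 imprinted neighbours, 3 were abundant enough to test, and 1 of them, Slc22a18, was called higher in MycKO cells, from 0.706 to 2.64 CPM.

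Cdkn1b encodes p27, whose protein is marked for degradation by the Skp2 ubiquitin ligase. It moved the other way from Cdkn1a and Cdkn1c. Its CPM were 52.7, 56.0 and 63.9 in WT, 59.6, 60.6 and 66.1 in MlxKO, 45.5, 44.6 and 40.6 in MycKO and 59.3, 58.5 and 61.7 in DKO libraries. Only MycKO libraries stood below the rest, and the other genotypes overlapped. The fall in MycKO against WT was -0.39 ± 0.08 (adjusted p = 0.000736, limma), and DKO exceeded MycKO by 0.45 ± 0.08 (adjusted p = 0.000498).

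Cdkn2b, which encodes p15, an INK4 inhibitor induced by TGF-β, was the INK4 gene with the widest range in primary cells. It was at 31.8, 31.8 and 36.2 CPM in WT, at 43.8, 48.1 and 52.2 in MlxKO, at 71.7, 60.6 and 71.7 in MycKO and at 46.4, 44.8 and 44.1 in DKO libraries. MycKO libraries were highest and WT libraries lowest, and MlxKO and DKO libraries overlapped between them. The rise was 1.01 ± 0.09 in MycKO (adjusted p = 1.47e-07), 0.52 in MlxKO (adjusted p = 0.00126) and 0.43 in DKO cells (adjusted p = 0.000547) by limma, and DKO differed from MycKO by -0.58 (adjusted p = 0.000111).

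Cdkn2a, next to Cdkn2b on chromosome 4, was not called in any primary comparison. Its CPM were 48.1, 44.6 and 42.8 in WT, 52.9, 52.8 and 56.9 in MlxKO, 56.7, 42.4 and 56.4 in MycKO and 47.9, 46.8 and 48.8 in DKO libraries. MycKO10, at 42.4 CPM, lay below every WT library, whereas the other MycKO libraries lay above them. The difference of MycKO from WT was 0.18 ± 0.09 (limma adjusted p = 0.133), and without MycKO10 it was 0.32 (adjusted p = 0.00104). In the same locus Mtap, an enzyme of methionine salvage, fell by 0.51 (from 122 to 85.7 CPM) in MycKO cells, and Dmrta1 was too low to be tested.

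The remaining INK4 genes, Cdkn2c (p18) and Cdkn2d (p19), overlapped with WT in every genotype of primary cells, at 19.1 to 28.5 and at 12.1 to 17 CPM over all libraries, and their differences from WT lay between -0.18 and 0.15. MycKO10 had the lowest value of its group for both.

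Among the pocket proteins, Rbl1 and Rbl2 moved in opposite directions. Rbl1 encodes p107, which binds the repressive E2F factors in cycling cells. Its CPM were 30.0, 28.5 and 31.8 in WT, 27.9, 29.5 and 25.2 in MlxKO, 16.7, 22.4 and 18 in MycKO and 15.6, 16.7 and 16.3 in DKO libraries. The libraries without Myc lay below all others, and MycKO and DKO overlapped at 16.7 CPM. The fall was -0.64 ± 0.10 in MycKO (adjusted p = 9.36e-05, limma) and -0.85 ± 0.10 in DKO cells (adjusted p = 4.17e-06).

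Rbl2 encodes p130, the pocket protein that predominates in resting cells and forms the DREAM repressor with E2F4 and the MuvB core. It was at 32.3, 33.2 and 36.3 CPM in WT, at 39.8, 41.0 and 40.5 in MlxKO, at 38.5, 43.6 and 35.3 in MycKO and at 44.5, 45.1 and 43.9 in DKO libraries. DKO libraries were above all of the others. The rise in DKO against WT was 0.38 ± 0.08 (adjusted p = 0.000791), while MycKO at 0.20 (adjusted p = 0.0574) and MlxKO at 0.25 (adjusted p = 0.0637) were not called by limma. In MycKO cells Rbl2 was called higher by edgeR (adjusted p = 0.0451), by DESeq2 (adjusted p = 0.0469) and with median-ratio scaling (adjusted p = 0.0489), and in MlxKO cells with scaling by library totals (0.28, adjusted p = 0.0351). Rb1, the founding member, was at 24.5 to 25.5 CPM in WT and at 19, 29.2 and 22.5 in MycKO cells, where the libraries spread on both sides of WT. It was not called in any primary comparison, and without MycKO10 it was lower in MycKO cells by -0.26 (adjusted p = 0.0249).

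In DKO cells 5 of 10 members were called against WT, with Cdkn1a, Cdkn1c, Cdkn2b and Rbl2 higher and Rbl1 lower, beside 49.5% of all genes (24% higher and 25.5% lower). Only Cdkn2b was called in MlxKO cells, beside 8.88% of all genes (3.75% higher and 5.14% lower). DKO and MycKO cells differed in 3 of 10, with Cdkn1b higher and Cdkn1a and Cdkn2b lower in DKO, beside 21.5% of all genes (10.6% higher and 11% lower). Libraries did not overlap for 5 members in DKO against WT, 5 in MlxKO against WT and 4 in DKO against MycKO, beside 60.8%, 28.3% and 36.9% of all genes. Without MycKO10 the counts were 7 in MycKO against WT, 5 in DKO against WT, 4 in MlxKO against WT and 6 in DKO against MycKO, where Cdkn2a was among the genes gained in each comparison but DKO against WT. The 4 genotypes share an estimate of the spread, so leaving out MycKO10 also moved comparisons that do not hold it. The SE of Cdkn2a in MlxKO against WT went from 0.09 to 0.06. Here and below, shares of all genes called are given only for fits with all libraries, so these counts have no share beside them. Without WT3, 3 genes were called in MlxKO against WT. No call of a member in the primary comparisons was lost with any single library left out.

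The balance of all genes depended on the scaling: of the genes called, 48.3% in MycKO, 42.2% in MlxKO and 48.5% in DKO against WT were higher, and with scaling by library totals these shares were 31.3%, 53.7% and 37.2%.

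**Figure D2:**
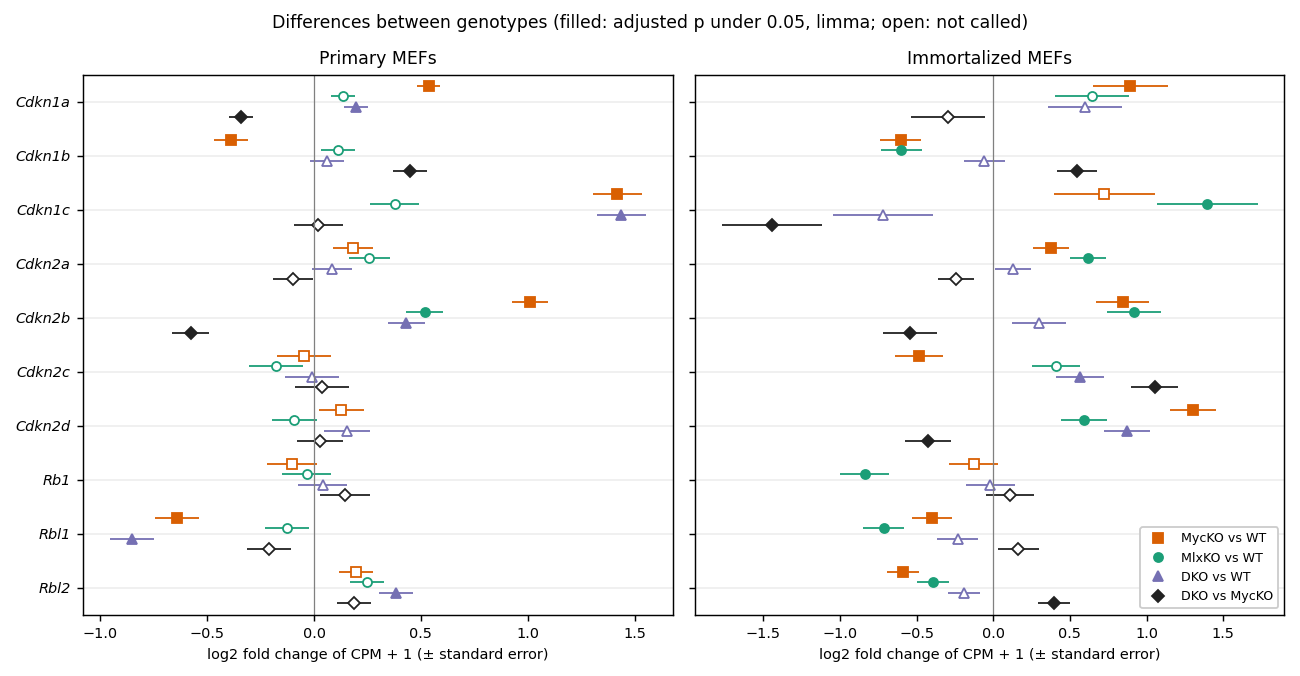
Log2 differences of CPM + 1 with their SE (x axis) for the 10 genes (y axis) in 4 comparisons of primary (left) and immortalized (right) MEFs, filled where the limma adjusted p was under 0.05. Cdkn1c and Cdkn2b show the rises of 1.42 and 1.01 in primary MycKO cells, and in DKO against MycKO cells the immortalized Cdkn1c lies at -1.44 and Cdkn2c at 1.05.

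S-phase genes that E2F factors drive fell together in primary cells that lacked Myc, and a link of this fall to the pocket proteins was not tested. All 16 of 16 E2F-driven S-phase genes fell in MycKO cells (median -0.79) and all 16 in DKO cells (median -1.27), and 13 of them were lower in DKO than in MycKO cells. Mcm6, a subunit of the replicative helicase, fell by 0.96, from 134 to 68.7 CPM, and Cdc6, which loads that helicase, fell by 0.94, from 17.5 to 8.62 CPM in MycKO and to 5.01 CPM in DKO cells. In MlxKO cells 8 of the 16 fell and none rose, and 3 fell without WT1 or MlxKO5, 4 without WT2 and 5 without MlxKO6. Of 7 proliferation markers, 7 also fell in MycKO and in DKO cells, and their summed level was 768 to 795 CPM in WT, 576 to 628 in MlxKO, 442 to 572 in MycKO and 373 to 397 in DKO libraries.

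Among 10 G1 cyclins and CDKs, the targets of the inhibitors, 2 rose and 5 fell in MycKO cells. Ccnd2 rose by 0.53, from 668 to 964 CPM, and Ccnd1 by 0.39, from 289 to 378 CPM, while Ccne2 fell by 1.12 and Ccna2 by 0.79. In DKO cells 8 of the 10 fell and none rose, and Ccnd1 stood at 185 CPM, a difference of -1.03 from MycKO cells. Of 7 E2F and DP partners 3 fell in MycKO cells, E2f2 (from 3.99 to 1.89 CPM), Tfdp1 (from 167 to 118 CPM) and E2f4, and the same number fell in DKO cells. Of 7 genes of the MuvB core with its kinase and activators 4 fell in MycKO cells, including Mybl2 by 0.84 and Lin9 by 0.57, and none rose.

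The p53 list, which holds Trp53 and 15 of its targets other than Cdkn1a, was divided. In MycKO cells 6 of 16 rose and 3 fell (median 0.13). Phlda3, which restrains Akt, rose by 0.46 from 142 to 197 CPM and Eda2r by 0.39. Sesn1 fell by 0.55 and Trp53 itself fell by 0.55, from 150.5 to 103 CPM. In DKO cells 2 of 16 rose, with 0 without DKO13 or DKO14 and 1 without WT1, WT2 or DKO15, and 4 fell. Against MycKO cells 5 were lower in DKO and none higher, and without MycKO10 7 were lower and 1 higher. The difference of DKO from MycKO was -0.65 for Ccng1, a cyclin that p53 induces, and -0.49 for Mdm2, the ubiquitin ligase of p53.

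Of 7 genes that act on the CIP/KIP inhibitors, 3 fell in MycKO cells, all of the ligase that marks p27: Skp2 fell by 0.78 (from 28.5 to 16.4 CPM), Cks1b by 0.40, and Skp1 fell as well. Foxo3, a transcription factor that induces Cdkn1b, rose by 0.22. Without MycKO10 5 of the 7 fell and 2 rose, and without WT1 or WT3 2 fell and none rose. Among 14 regulators of the Cdkn2a-Cdkn2b locus 3 rose and 3 fell, and without MycKO10 5 rose and 4 fell. Ezh2, which places the Polycomb mark on that locus, fell by 0.76 and its partner Suz12 by 0.56, whereas Tbx2, a repressor of Cdkn2a, rose by 0.83 and Kdm6b, which removes the mark, by 0.35. Of 12 senescence-associated genes, 7 rose and 3 fell in MycKO cells. Igfbp3 rose by 1.77, from 56.4 to 189 CPM, and Igfbp5 by 1.17, while Hmgb2 fell by 0.99 and Lmnb1, the lamin lost in many senescent cells, by 0.68. In DKO cells 6 rose and 3 fell, and Il6 rose by 1.17, from 3.32 to 8.75 CPM.

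Markers of other cells moved with the genotype in primary cultures. Macrophage markers fell in MycKO (12 of 12) and in DKO cells (12 of 12). Their summed level was 184 to 370 CPM in WT, 202 to 241 in MlxKO, 28.5 to 40.1 in MycKO and 60.8 to 125 in DKO libraries, and none of the 12 was at 0 in all libraries of a group. Epithelial markers summed to 16.5 to 19.9 CPM in WT and 1.95 to 4.83 in the other genotypes, with 2 of 6 abundant enough to test. Endothelial markers summed to 3.52 to 15.5 CPM, with 2 of 7 testable, and skeletal muscle markers to 65.4 to 138 CPM, with 2 of 8 testable. In bulk RNA, fewer cells of a type and less RNA per cell cannot be told apart, and the part of these cells and of the fall in proliferation in the values of the inhibitors was not tested. In immortalized libraries the 12 macrophage markers summed to 5.74 to 12.2 CPM, and 6 to 8 of them were at 0 in all libraries of a group.

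**Figure D3:**
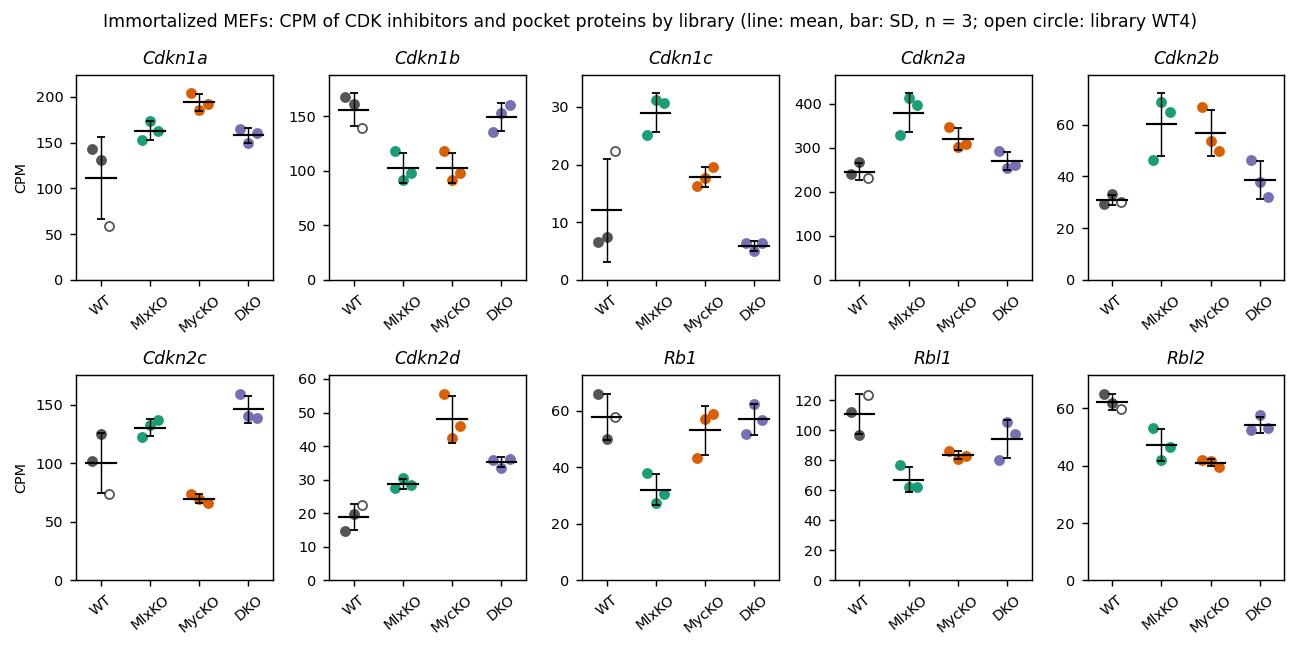
CPM of the 10 genes in each immortalized library (y axis, from 0), by genotype (x axis), with the mean as a line and the SD as a bar (n = 3) and library WT4 as an open circle. For Cdkn1c WT4 lies at 22.3 CPM, apart from the other WT libraries at 6.50 and 7.38, and for Cdkn2d the WT libraries lie below all others.

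In immortalized cells 8 of 10 members were called in MycKO against WT, beside 48% of all genes (24.4% higher and 23.5% lower), and 8 of 10 in MlxKO against WT, beside 38.9% (19.1% higher and 19.9% lower). In each comparison 4 rose and 4 fell. In MycKO cells Cdkn1a, Cdkn2a, Cdkn2b and Cdkn2d were higher and Cdkn1b, Cdkn2c, Rbl1 and Rbl2 lower. In MlxKO cells Cdkn1c, Cdkn2a, Cdkn2b and Cdkn2d were higher and Cdkn1b and the 3 pocket proteins lower. In DKO cells only Cdkn2c and Cdkn2d, both higher, were called, beside 18.9% of all genes (10.4% higher and 8.51% lower). Between DKO and MycKO cells 6 differed, with Cdkn1b, Cdkn2c and Rbl2 higher and Cdkn1c, Cdkn2b and Cdkn2d lower in DKO, beside 29.4% (14.8% higher and 14.6% lower). Libraries did not overlap for 8, 9, 5 and 8 members in these comparisons, beside 51.1%, 49.1%, 37.1% and 49.7% of all genes. Without WT4 the counts were 8, 8, 2 and 7, with Cdkn1c called and Rbl1 not called in MycKO cells and Cdkn1a also called between DKO and MycKO. Shares of all genes called in fits without a library are again not given. When only the compared genotypes entered the fit, Cdkn1a, Cdkn2a, Cdkn2c and Rbl1 lost their calls in MycKO and Cdkn2c lost its call in DKO against WT. The count in MycKO against WT was 5 without WT2, that in DKO against WT was 1 without DKO13, DKO14 or DKO15, and that in DKO against MycKO was 3 without DKO14. Between DKO and MycKO cells, Cdkn2d (adjusted p = 0.0494, limma) lost its call in 9 of the 12 fits with a library left out, with a pseudocount of 0.1 (adjusted p = 0.0518) and without the filter on low values (adjusted p = 0.0663). Cdkn2b lost it without MycKO9, MycKO10, DKO14 or DKO15 and without the filter (adjusted p = 0.0521), and Rbl2 without MycKO11 or DKO14. Against WT, calls lost in this way were those of Cdkn2a without WT2 or MycKO9, of Cdkn2c without WT2, WT3, MycKO10 or MycKO11 and of Rbl1 without WT2, WT4, MycKO10 or MycKO11 in MycKO cells, of Rbl2 without MlxKO6 in MlxKO cells, and of Cdkn2c without WT2 or any one DKO library in DKO cells. With scaling by library totals the share of called genes that were higher in MlxKO cells went from 49.0% to 70.0% and the median of all genes moved by 0.15, and on that scale Rbl2 was not called (-0.23, adjusted p = 0.107), whereas Cdkn1a (0.81, adjusted p = 0.0262) and Cdkn2c (0.58, adjusted p = 0.0189) were called higher in MlxKO cells.

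Cdkn1a was at 143, 131 and 59.5 CPM in WT, 153, 173 and 163 in MlxKO, 204, 186 and 192 in MycKO and 164, 149 and 160.3 in DKO libraries. MycKO libraries were above all others, and WT4 was far below the rest. The rise in MycKO against WT was 0.89 ± 0.24 (adjusted p = 0.01, limma) with WT4 and 0.50 (adjusted p = 0.000838) without it, so the size of the rise rests in part on WT4. Cdkn1b, at 168, 161 and 139 CPM in WT, was at 91.3 to 118 in MycKO, at 91.8 to 118 in MlxKO and at 135, 153 and 160.3 in DKO libraries. Neither single knockout overlapped with WT, and DKO did. Its difference from WT was -0.60 in both MycKO (adjusted p = 0.00288) and MlxKO cells (adjusted p = 0.00461).

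Cdkn1c showed the widest range of the members in immortalized cells. Beside the WT values of 6.50, 7.38 and 22.3 CPM, it was at 25.2, 31.3 and 30.6 in MlxKO, 16.2, 17.6 and 19.6 in MycKO and 6.43, 4.98 and 6.41 in DKO libraries. Either single knockout exceeded both WT libraries other than WT4, and DKO libraries were below every WT library. MlxKO exceeded WT by 1.40 ± 0.33 (adjusted p = 0.00642), and without WT4 by 1.91. MycKO exceeded WT by 0.72 ± 0.33, not called (adjusted p = 0.0868), and without WT4 by 1.24 (adjusted p = 1.38e-05, limma). DKO stood below MycKO at -1.44 ± 0.33 (adjusted p = 0.00564).

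Of the INK4 genes, Cdkn2a was at 239, 268 and 230.3 CPM in WT, 329, 412 and 397 in MlxKO, 348, 301 and 308 in MycKO and 293, 253 and 261 in DKO libraries. Both single knockouts lay above all WT libraries, by 0.62 in MlxKO (adjusted p = 0.00209, limma) and 0.37 in MycKO (adjusted p = 0.0194), and DKO overlapped with WT. Cdkn2b was at 29.4, 33.3 and 30.2 CPM in WT, 46.4, 69.0 and 65.0 in MlxKO, 66.7, 53.7 and 49.7 in MycKO and 46.4, 37.8 and 31.9 in DKO libraries. It rose by 0.92 in MlxKO (adjusted p = 0.0022) and by 0.84 in MycKO cells (adjusted p = 0.00202), again without a call in DKO cells at 0.30.

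Cdkn2d and Cdkn2c, which overlapped with WT in every genotype of primary cells, were spread out here. Cdkn2d was at 14.8, 19.8 and 22.4 CPM in WT, 27.5, 30.4 and 28.4 in MlxKO, 55.7, 42.3 and 45.9 in MycKO and 35.7, 33.5 and 36.3 in DKO libraries. No genotype overlapped with another, in the order WT, MlxKO, DKO, MycKO, and the rise in MycKO was 1.30 ± 0.15 (adjusted p = 3.39e-05, limma). Cdkn2c was at 102, 125 and 74.0 CPM in WT, 122, 132 and 137 in MlxKO, 73.7, 69.6 and 66.3 in MycKO and 159.7, 140.3 and 138 in DKO libraries. DKO exceeded MycKO by 1.05 ± 0.16 (adjusted p = 0.0003). The MycKO libraries lay just below WT4 and well below the other WT libraries, with a fall of -0.48 (adjusted p = 0.0223) that was -0.69 without WT4.

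Each pocket protein had its lowest mean in a single knockout. Rb1 was at 66.2, 49.9 and 57.8 CPM in WT, 38.1, 27.5 and 30.6 in MlxKO, 43.1, 57.2 and 58.9 in MycKO and 51.7, 62.5 and 56.7 in DKO libraries. The MlxKO libraries lay below all others, by -0.84 ± 0.16 against WT (adjusted p = 0.00219, limma). Rbl1, at 112, 96.5 and 124 CPM in WT, was at 62.1 to 76.7 in MlxKO (-0.72, adjusted p = 0.00181), at 81.0 to 86.2 in MycKO (-0.40, adjusted p = 0.0253) and at 80.2, 105 and 97.3 in DKO libraries. Without WT4 its fall in MycKO cells was -0.32 and not called (adjusted p = 0.0586). Rbl2, at 65.2, 61.8 and 59.8 CPM in WT, was at 39.6 to 42.1 in MycKO (-0.59, adjusted p = 0.000771) and at 42.1 to 53.2 in MlxKO libraries (-0.40, adjusted p = 0.0117). In DKO libraries Rbl2 was at 52.4, 57.6 and 53.1 CPM, above MycKO by 0.39 (adjusted p = 0.0136).

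S-phase genes did not fall as a group in immortalized MycKO cells: 2 of 16 rose (Tk1 among them, by 0.59), 1 fell (Pola1, by 0.39, with no call without any one of the MycKO libraries), and the median was 0.05. Among G1 cyclins and CDKs 5 of 10 rose and 1 fell, while Cdk2 fell by 0.25, a call lost without WT2, WT3, MycKO10 or MycKO11. Ccnd1 was at 503, 509 and 503 CPM in MycKO and at 302, 318 and 56.3 in WT libraries, the last WT4, and its rise of 1.52 was 0.70 without WT4. Ccnd3 stood at 125 CPM against 61.2. E2f1 rose by 1.11, from 51.5 to 113 CPM, and E2f4 by 0.41, whereas Tfdp2 and E2f3 fell, and without WT2, WT3, MycKO10 or MycKO11 only 1 of this list rose. Of 7 MuvB-related genes 3 rose, with Mybl2 by 1.07 and Foxm1 by 0.85. Of the p53 list 3 rose and 3 fell, led by Phlda3 with a rise of 1.45 and Btg2 with a fall of -2.02, while without WT4 5 rose and 5 fell and without WT2 5 rose and 3 fell. Of 14 regulators of the Cdkn2a-Cdkn2b locus 2 rose, Cbx8 and Tbx2, and 5 fell. Among these, Bmi1, a Polycomb repressor of that locus, fell by 1.11, from 179.6 to 82.3 CPM, and Cbx7, another, by 0.63. Without WT2 or MycKO9 3 of the list fell. Of 12 senescence-associated genes 8 rose and 1 fell, Igfbp5 by 3.50, from 30.6 to 332 CPM, and Igfbp7 by 3.32, while Cxcl1 fell by 1.75. Lmnb1, whose level falls in many senescent cells, was among the 8 that rose, by 0.45. Without MycKO9 or MycKO11 5 of the list rose. Of 7 genes acting on the CIP/KIP inhibitors 5 fell, or 3 without MycKO9, led by Foxo1 at -0.81 and Skp1 at -0.70. The proliferation markers summed to 1293 to 1865 CPM in WT and 1214 to 1436 in MycKO libraries, and 1 of 7, Plk1, rose, a call lost without WT2 or MycKO10, and 2 rose without WT4.

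The 4 genotypes form a factorial design. The interaction sets the difference of DKO from MycKO cells against that of MlxKO from WT cells. DKO and MycKO cells had both been exposed to 4OHT, whereas of MlxKO and WT cells only MlxKO had. Mlx loss and exposure to 4OHT therefore cannot be told apart in the interaction either. In primary cells the interaction was called for 2 of 10 members, beside 13.5% of all genes (7.47% positive and 6.07% negative). For Cdkn2b it was -1.10 ± 0.12 (adjusted p = 1.07e-05, limma). Cdkn2b was higher in MlxKO than in WT cells, by 0.52, and lower in DKO than in MycKO cells, at -0.58. For Cdkn1a it was -0.48 ± 0.08 (adjusted p = 0.000507), from a difference of 0.14 with Myc, not called, and -0.34 without. The interaction of Cdkn1b, 0.34, did not reach the threshold by limma (adjusted p = 0.054) but did by edgeR (adjusted p = 0.0372), DESeq2 (adjusted p = 0.0248) and with median-ratio scaling (adjusted p = 0.0435). That of Cdkn1c was -0.36 (adjusted p = 0.173). Without MycKO10 4 members were called, Cdkn2a (-0.49) and Cdkn1b (0.35) in addition.

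In immortalized cells the interaction was called for all 10 members by limma, 5 in each direction, beside 47.4% of all genes (23.7% positive and 23.8% negative). It was negative for Cdkn1c (-2.84 ± 0.47, adjusted p = 0.000487), Cdkn2b (-1.46), Cdkn2d (-1.02), Cdkn1a (-0.94) and Cdkn2a (-0.86), for which the DKO was lower than the sum of both single effects. It was positive for Cdkn1b (1.15), Rb1 (0.95), Rbl1 (0.88), Rbl2 (0.79) and Cdkn2c (0.65), adjusted p = 0.0297 for the last. All 10 remained called without WT4, and 8 or 9 were called without any one other library. Cdkn1a (adjusted p = 0.0406) lost its call without any one of the MlxKO, MycKO or DKO libraries, 9 of 12 fits, and Cdkn2c in 7 of 12, and the calls of the other 8 genes were kept in each of these fits. With scaling by library totals the share of called interactions that were positive over all genes went from 49.9% to 37.2% and the median of all genes moved by -0.16, and Cdkn2c was then not called (0.47, adjusted p = 0.128).

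**Figure D4:**
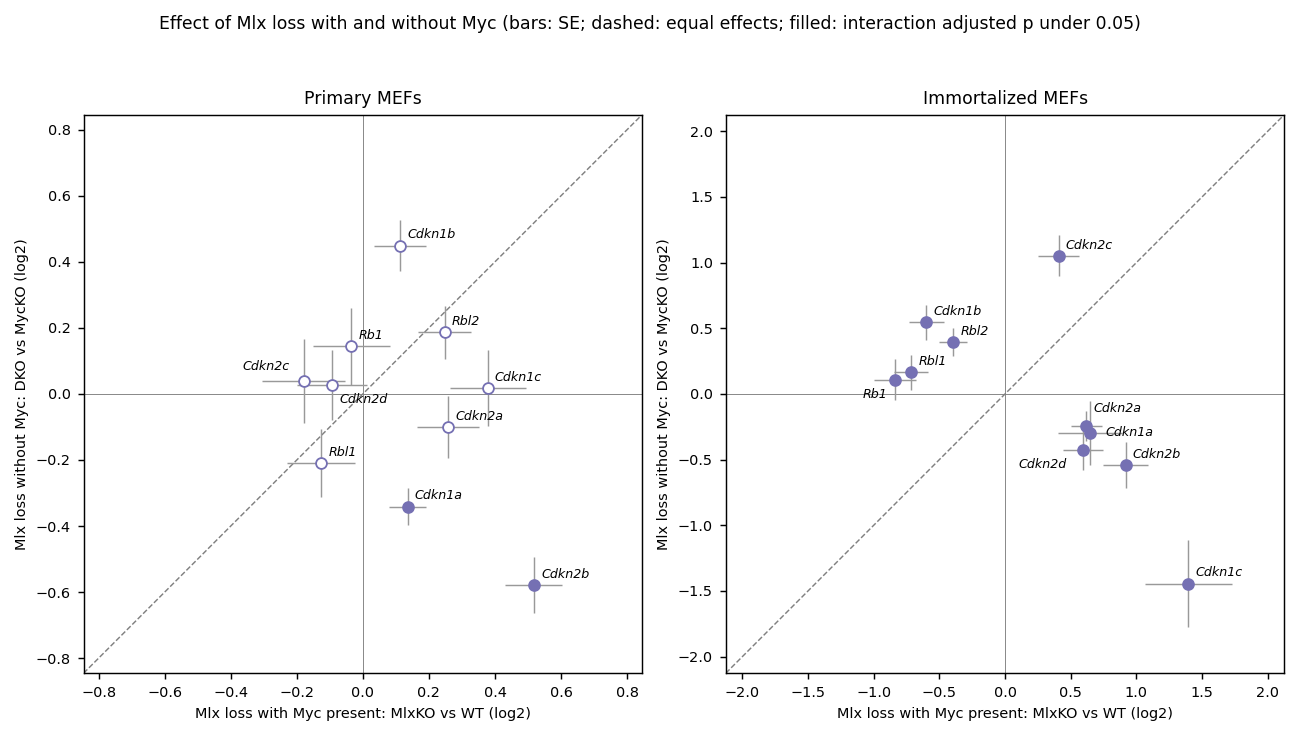
Log2 difference with SE after Mlx loss in cells with Myc (x axis, MlxKO against WT) and without Myc (y axis, DKO against MycKO) for the 10 genes in primary (left) and immortalized (right) MEFs, filled where the interaction was called by limma. The dashed line marks equal effects; Cdkn2b lies at 0.52 and -0.58 in primary cells and at 0.92 and -0.54 in immortalized cells.

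Across the 12 libraries of each table, a description that carries no test because libraries of a genotype share their source, the genes most like Cdkn1c out of 11810 were Insyn1, Sox4 and C1qtnf3, with the lower of the 2 tables' r at 0.939, 0.933 and 0.932. Nearest to Cdkn2b were Slc9a3r2 at 0.888, Snn at 0.881 and Homer3 at 0.847. For Rbl1 they were Usp1 at 0.958, Eif5 at 0.944 and Hnrnpll at 0.937.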

How the data were processed

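RNA from MEFs of 4 genotypes, primary and immortalized, was sequenced as 3 libraries per group. The authors selected poly-A RNA, made directional libraries, aligned them to GRCm39 in CLC Genomics Workbench and deposited a scaled signal, CPM, for each gene, and how the libraries were scaled is not given in the sources used here. Every deposited value was a whole multiple of a library's single read (100% of values, tolerance 0.05), which gave the depth, and 3 reads corresponded to 0.145 to 0.196 CPM, counting error only. Columns show genotypes but no replicate numbers.

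Genes that reached 1 CPM in 3 or more of the 12 libraries were tested on log2(CPM + 1) with limma 3.58.1 in R 4.3.3 (mean trend, 4 genotypes per fit, Benjamini-Hochberg threshold 0.05). An exact permutation test of 3 against 3 libraries cannot go below 0.10. Members and lists were chosen with earlier results of these data known. Within lists the genes named were at most 2 with the largest rise and 2 with the largest fall past the threshold, and others were named after their values were seen. A gene that this rule would name in the S-phase list is not reported here. The alternatives were scaling by median ratios or by library totals, a pseudocount of 0.1, other filters (none, or a mean of at least 5 CPM), a robust prior, fits of the compared genotypes alone, count tests with edgeR 4.0.16 and DESeq2 1.42.0 on whole reads, and the omission of single libraries. On simulated data of primary MycKO against WT (12948 genes, 200 changed by a log2 of 1), limma recovered 99%, edgeR 99% and DESeq2 98%, and called 14, 15 and 17 unchanged genes.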

Additional observations from a re-analysis of the deposited data

Results flagged for a closer look

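The effect of Mlx loss differed with and without Myc, by limma's interaction term, in 12 cases. In primary cells these were Cdkn1a (-0.48) and Cdkn2b (-1.10). In immortalized cells they were Cdkn1a (-0.94), Cdkn1b (1.15), Cdkn1c (-2.84), Cdkn2a (-0.86), Cdkn2b (-1.46), Cdkn2c (0.65), Cdkn2d (-1.02), Rb1 (0.95), Rbl1 (0.88) and Rbl2 (0.79). Of these genes only Cdkn1a and Cdkn2b were called in both tables, with the same sign, and in immortalized cells Cdkn1a (adjusted p = 0.0406) lost the call in 9 of the 12 fits with a library left out and without the filter on low values (adjusted p = 0.0705), beside 13.5% of all genes called in primary and 47.4% in immortalized cells.

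In 3 cases every knockout library lay on the opposite side of all WT libraries in primary and in immortalized cells. The share of all genes with this pattern was not counted. In MlxKO against WT, libraries did not overlap for 28.3% of all genes in primary and 49.1% in immortalized cells. In DKO against WT these shares were 60.8% and 37.1%. Rbl2 in MlxKO against WT was 0.25 in primary and -0.40 in immortalized cells, and in DKO against WT it was 0.38 and -0.19. Of these, the 0.25 (adjusted p = 0.0637, limma) and the -0.19 (adjusted p = 0.209, limma) were not called. Cdkn1c in DKO against WT was 1.44 in primary and -0.72 in immortalized cells, or -0.20 without WT4 (adjusted p = 0.379, limma). The -0.72 was not called by limma (adjusted p = 0.141), but the fall was called by DESeq2 (adjusted p = 0.0281). That DESeq2 fit includes WT4, and no DESeq2 fit without it was made. The highest DKO library, at 6.43 CPM, lay just below the lowest WT library, at 6.50 CPM. The differences between the tables were not tested, since the tables were normalized separately.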

How the results depend on the processing

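No paired analysis was possible because the columns carry no replicate numbers of the labels. Over the settings other than left-out libraries, 849 of 880 values for the 10 genes kept their direction and their side of the threshold, 17 became called, 12 lost the call and 2 changed sign. Both sign changes came with scaling to library totals in primary DKO against WT, with Cdkn1b at -0.0226 and Rb1 at -0.0408. In primary MlxKO against WT 2 genes were called with a pseudocount of 0.1, the filter at a mean of 5 CPM, only the groups compared, the robust prior or DESeq2, and 3 with scaling to library totals. With only the groups compared, 4 genes were called in immortalized MycKO and 1 in immortalized DKO against WT, where fewer libraries enter the fit. The calls lost by limma in MycKO cells were those of Cdkn1a (adjusted p = 0.0586), Cdkn2a (adjusted p = 0.0603), Cdkn2c (adjusted p = 0.0898) and Rbl1 (adjusted p = 0.0529). In DKO cells it was that of Cdkn2c (adjusted p = 0.115, limma). Without the filter on low values the immortalized interaction of Cdkn1a lost its call (adjusted p = 0.0705).

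With single libraries left out, 1110 of 1200 values stayed as they were, 24 became called, 46 lost the call and 20 changed sign. Genes called ranged from 5 to 7 in primary MycKO, 1 to 4 in MlxKO, 5 to 5 in DKO against WT, 3 to 6 in DKO against MycKO and 2 to 4 for the interaction. In immortalized cells they ranged from 5 to 8, 7 to 10, 1 to 3, 3 to 7 and 8 to 10. The shares of all genes called in these fits are not given beside these ranges. The sign changes were all among values with no call in the full fit. In primary cells these were Cdkn2c (-0.18 to 0.0801) and Rb1 (-0.26 to 0.0333) in MycKO, Rb1 in MlxKO (-0.0755 to 0.0187), Cdkn1b (-0.00032 to 0.14) and Cdkn2c (-0.14 to 0.0795) in DKO against WT, Cdkn1c (-0.0523 to 0.0850), Cdkn2c (-0.0904 to 0.12) and Cdkn2d (-0.0609 to 0.12) in DKO against MycKO, and the interactions of Rbl1 (-0.17 to 0.0346) and Rbl2 (-0.13 to 0.0182). In immortalized cells they were Rb1 in MycKO (-0.23 to 0.0112), Cdkn1b (-0.14 to 0.0124) and Rb1 (-0.12 to 0.0793) in DKO against WT, and Rb1 in DKO against MycKO (-0.0306 to 0.19). The causes were not tested.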
